A study of Homo sapiens with 13 samples.

Results

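The starts of all 19894 protein-coding genes were examined for H3K4me1 and H3K4me3 in MDA-MB-231 cells, an established line from a triple negative, basal B breast cancer. Each gene entered through the transcription start site (TSS) of its Ensembl canonical transcript (GENCODE release 44 on hg19), with the 10 kb on either side read along the direction of the gene in 100-bp bins. The windows were touched by 28397 of the 88319 H3K4me1 regions and 14473 of the 24693 H3K4me3 regions. No treatment or genetic change is named for these cells, which grew in serum-containing medium, and both marks were mapped by chromatin immunoprecipitation and sequencing in 2 replicate experiments each, with the Abcam antibodies Ab8895 (H3K4me1) and Ab8580 (H3K4me3). The replicates of a mark were merged into 1 list of positions before deposition. No spread between replicates, read depth or height of a region can therefore be given, and the 95% Wilson intervals printed here cover counting error over genes only. Lists of H3K27ac, Pol II, CTCF and p300/CBP regions from the same line served as further readouts.

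Lysine 4 of histone H3 can carry up to 3 methyl groups. Trimethylation is laid down around active and CpG-rich gene starts, where CpG-binding subunits bring SET1 and MLL complexes, and monomethylation by KMT2C and KMT2D marks enhancers. Because a lysine carries only a given number of methyl groups at a time, a promoter often shows trimethylated nucleosomes at its core and monomethylated ones further out. In bulk cells, regions of the 2 marks can overlap where they lie on different histone tails, nucleosomes, alleles or cells.

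The arrangements found at gene starts are shown on 6 examples. TGM2 (transglutaminase 2) had the most H3K4me1 among genes with H3K4me1 outside both edges of the H3K4me3 region. ARID2, a subunit of the PBAF chromatin remodeller, had the widest H3K4me3 region with no H3K4me1 within 10 kb. KCMF1, a ubiquitin ligase, was the first by symbol of those with H3K4me1 on the upstream side alone to the 10-kb limit. CHD2, a chromatin remodeller, was the first by symbol of those with H3K4me1 on the downstream side alone to the 10-kb limit. NDST1, an enzyme of heparan sulfate synthesis, had H3K4me1 at its TSS and no H3K4me3 within 10 kb. FOSL1 encodes Fra-1, the AP-1 subunit the study is about. For ARID2, KCMF1, CHD2 and NDST1, the nearest 200 bases upstream of the TSS that touch no annotated exon are printed from GRCh37, 5′ to 3′ on the strand of the gene, with CpG dinucleotides in capitals.
ARID2 (chr12:46123289-46123488, plus strand): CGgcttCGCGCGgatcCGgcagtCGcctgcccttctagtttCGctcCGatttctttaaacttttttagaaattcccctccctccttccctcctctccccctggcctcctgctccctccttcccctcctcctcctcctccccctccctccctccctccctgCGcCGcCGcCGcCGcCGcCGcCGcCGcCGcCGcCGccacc
KCMF1 (chr2:85198016-85198215, plus strand): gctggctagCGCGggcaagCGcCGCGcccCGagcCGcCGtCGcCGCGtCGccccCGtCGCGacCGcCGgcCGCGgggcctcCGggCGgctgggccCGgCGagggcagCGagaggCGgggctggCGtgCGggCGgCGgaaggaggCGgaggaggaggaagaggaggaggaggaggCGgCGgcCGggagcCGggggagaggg
CHD2 (chr15:93443219-93443418, plus strand): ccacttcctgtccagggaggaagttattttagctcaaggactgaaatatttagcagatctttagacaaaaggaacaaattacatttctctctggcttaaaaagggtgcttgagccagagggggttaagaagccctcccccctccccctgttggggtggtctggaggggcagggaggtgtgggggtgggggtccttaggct
NDST1 (chr5:149887493-149887692, plus strand): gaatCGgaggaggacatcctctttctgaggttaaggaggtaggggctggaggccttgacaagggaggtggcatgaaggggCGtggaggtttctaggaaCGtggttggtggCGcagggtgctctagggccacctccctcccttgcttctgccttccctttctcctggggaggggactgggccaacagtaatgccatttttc
These stretches end just before the TSS in ARID2 and NDST1, 68 bases before it in KCMF1 and 135 in CHD2. KCMF1 held 34 CpGs in 200 bases, ARID2 20, NDST1 4 and CHD2 0. The CHD2 stretch without a CpG lay at the upstream edge of a region of 8500 bp of H3K4me3, which ran almost wholly downstream. GC content was 83% in KCMF1, 69% in ARID2, 58.5% in NDST1 and 52% in CHD2.

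**Figure D1:**
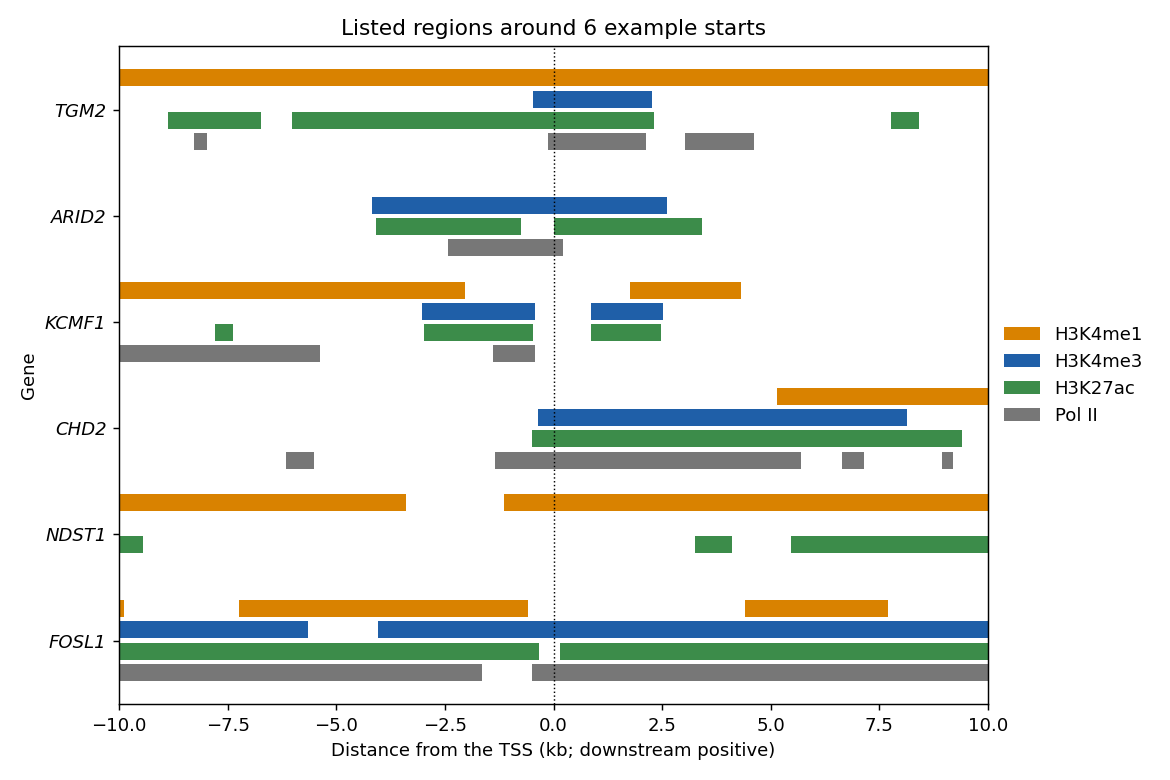
Listed regions of H3K4me1, H3K4me3, H3K27ac and Pol II within 10 kb of 6 gene starts, plotted by distance from the TSS in kb with the gene running to the right; bars are cut at 10 kb. H3K4me1 covers the whole TGM2 window and is missing from the ARID2 window, and the TSS of KCMF1 lies in a gap between H3K4me3 regions.

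The 2 marks had opposite profiles across gene starts. H3K4me3 covered the TSS bin (the first 100 bp of the gene, counted as covered when at least 50 bases lay in a region) at 10575 of 19894 genes, or 53.2% (52.5% to 53.9%). H3K4me1 covered it at 1665 genes, or 8.37% (7.99% to 8.76%), the lowest share within 2 kb of the TSS. Moving outward, H3K4me1 climbed to 27.7% (27.1% to 28.4%) of genes in the bin from 1200 to 1100 bp upstream. On the downstream side it reached 37.1% (36.4% to 37.8%) in the bin from 1600 to 1700 bp. The downstream crest was thus higher and lay farther out than the upstream crest. Both crests were read on the same genes at the highest bin of each side, so the intervals do not test the difference. H3K4me1 was more frequent than H3K4me3 from 1000 bp upstream outward and from 1300 bp downstream outward.

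Far from the TSS both marks fell to a floor. Between 8 and 10 kb upstream, 10.2% of bases lay in H3K4me1 and 2.91% in H3K4me3, and between 8 and 10 kb downstream 11.6% and 2.23%. Over the reference chromosomes the lists covered 5.43% and 1.23%, so that even the outer windows held more of both marks than the genome at large. At the TSS bin the H3K4me1 share was below the level of its own outer windows.

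H3K4me3 was itself uneven at the TSS. Its share rose to 52.2% at 300 to 200 bp upstream and to 55.9% at 400 to 500 bp downstream, with a shallow dip between them. The 9638 starts with H3K27ac at the TSS bin had no such dip: the highest upstream share was 93.7%, at 100 to 0 bp, and the TSS bin had 97.3%. At the 10256 starts without H3K27ac there, the share was 17.1% at 400 to 300 bp upstream, 11.1% at 100 to 0 bp upstream and 19.1% at 600 to 700 bp downstream. Bins with both marks made up 4.04% (3.78% to 4.32%) of TSS bins, 9.16% at 700 to 600 bp upstream and 16.1% at 1100 to 1200 bp downstream. H3K4me3 without H3K4me1 held 49.1% of TSS bins, H3K4me1 without H3K4me3 held 4.33%, and 42.5% held neither. H3K4me1 alone was most frequent at 1500 to 1400 bp upstream (20.6%) and 1900 to 2000 bp downstream (28.0%), outside the crests of the bins with both.

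**Figure D2:**
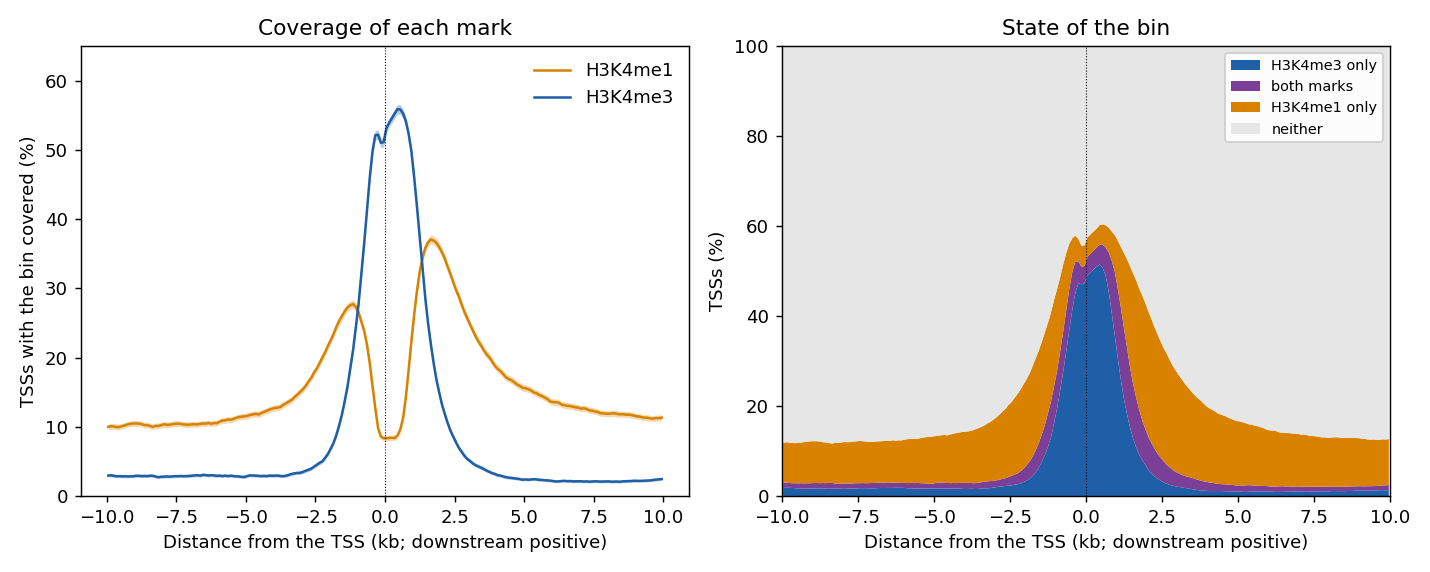
Left, percent of the 19894 TSSs whose 100-bp bin was covered by H3K4me1 or H3K4me3, against distance from the TSS in kb, with 95% Wilson intervals as bands; right, the same bins split into H3K4me3 only, both marks, H3K4me1 only and neither, stacked to 100%. H3K4me1 drops to 8.37% at the TSS between crests of 27.7% upstream and 37.1% downstream.

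The dip in H3K4me1 was seen at genes with H3K4me3 nearby. An H3K4me3 region touched the 3-kb window centred on the TSS at 12472 genes (62.7% of all), and the nearest such region is called linked here. Among these genes H3K4me1 covered 8.48% of TSS bins, against 40.2% of bins 1200 to 1100 bp upstream and 55.3% of bins 1600 to 1700 bp downstream. In the other 7422 genes H3K4me1 had no dip: it covered 8.19% of TSS bins, the highest share of any bin in the window, and 5.89% at its lowest within 2 kb. Any H3K4me1 within 10 kb was found at 93.7% of genes with a linked region and at 47.5% of those without.

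Most linked H3K4me3 regions had H3K4me1 beside them. A shoulder was counted when at least 1 base of H3K4me1 lay in the 1 kb outside an edge. Of the 12472 genes, 7444 had shoulders on both sides (59.7%, interval 58.8% to 60.5%), 2436 on the downstream side alone (19.5%), 1267 on the upstream side alone (10.2%) and 1325 on neither (10.6%, interval 10.1% to 11.2%). Downstream shoulders were present at 79.2% of genes and upstream shoulders at 69.8%, and this order turned at the 1472 genes with a region under 1000 bp (38.7% and 54.8%). Genes can share a region: 2795 of the 12472 did, and among the 9677 genes with a region of their own the share with both shoulders was 55.5%. Per region, 6358 of the 11014 linked H3K4me3 regions had H3K4me1 outside both edges. These shares moved with the definition: asking for 500 of the 1000 bases outside an edge left both shoulders at 33.3% of genes and put 23.6% at neither, and dropping from each list the regions narrower than its median gave 24.5% and 31.5%. The downstream side alone then held 30.6% and 34.1%, the latter the most frequent class.

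Shoulders were seldom detached from the H3K4me3 region. The H3K4me1 region ran across the edge into H3K4me3 in 84.0% of upstream and 88.5% of downstream shoulders. Where it started outside, the median gap to the edge was 200 bp on either side. Outward, H3K4me1 reached a median of 800 bp (quartiles 400 and 1550 bp) beyond the upstream edge and 1200 bp (650 and 2200 bp) beyond the downstream edge. H3K4me1 covered a median of 22.5% of the bases of a linked H3K4me3 region, at 2004 genes (16.1%) the region held none, and at 879 (7.05%) it lay fully inside H3K4me1.

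At the 7336 genes with a linked region of 2 kb or more, H3K4me1 was followed across the edges themselves. In the first 100 bp outside, it was present at 70.8% of upstream and 83.8% of downstream edges. It fell to 34.2% and 56.0% at 1000 to 1100 bp outside. On the inside it fell faster, to 21.3% and 47.3% at 500 to 400 bp from the edge and to 5.14% and 15.2% at 1000 to 900 bp. The downstream edge had more H3K4me1 in each of these bins.

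**Figure D3:**
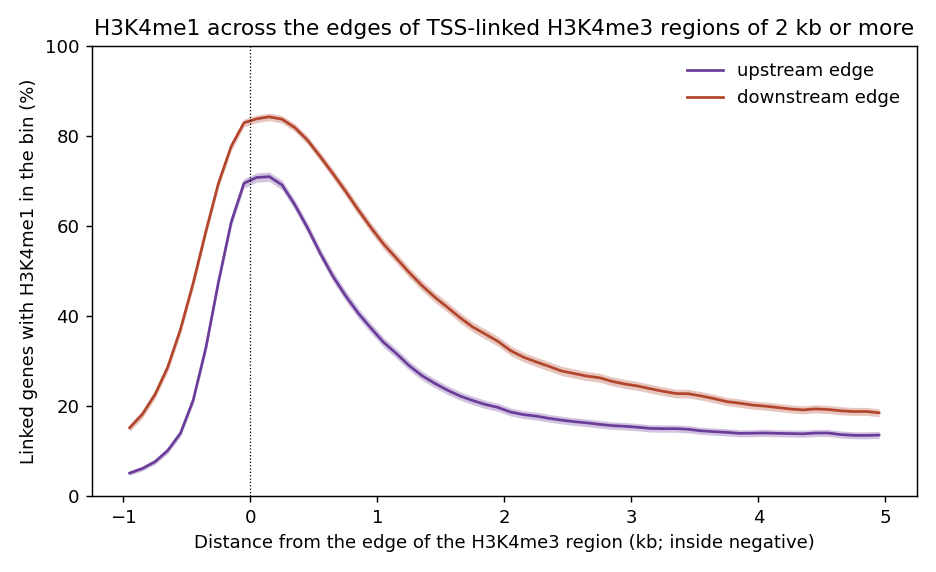
Percent of the 7336 genes with a linked H3K4me3 region of at least 2 kb that had H3K4me1 in each 100-bp bin, against distance from the edge of that region in kb (inside negative), for the upstream and downstream edge, with 95% Wilson intervals as bands. Both curves crest just outside the edge, at 71.0% upstream and 84.3% downstream, and fall faster toward the inside.

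Of the 7444 genes with both shoulders, 6560 had no H3K4me1 at the TSS base. The stretch free of H3K4me1 around their TSSs had a median length of 2000 bp (quartiles 1550 and 2600 bp), with a median of 786 bp upstream and 1098 bp downstream. The H3K4me3 region of the same genes had a median width of 2650 bp and exceeded the free stretch by a median of 650 bp. The H3K4me3 region of linked genes likewise reached farther into the gene, by a median of 1323 bp against 830 bp upstream, and 69.9% extended farther downstream than upstream. The free stretch was never shorter than 1000 bp, since the authors joined H3K4me1 signal over gaps of up to 1000 bp. A narrower gap in H3K4me1 cannot appear in the list.

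Shoulders went with the width of the H3K4me3 region. With linked regions of 200 to 1550 bp, 33.7% of 3266 genes had both shoulders and 24.2% had neither. With 1600 to 2200 bp the shares were 55.9% and 10.4%, with 2250 to 3000 bp 70.2% and 4.65%, and with 3050 to 22850 bp 80.6% and 2.41%. The median free stretch of genes with both shoulders was 1350, 1450, 1950 and 2750 bp in these groups, from narrow to wide. H3K4me1 over the TSS base itself went the other way, from 20.9% of genes with the narrowest regions to 7.79%, 2.87% and 1.65%. Upstream and downstream shoulders were even in the narrowest group (54.9% and 54.7%), and the downstream ones were more frequent in the 3 wider groups. The limit on short gaps bears on the narrowest group, which holds the 1472 genes with a region under 1000 bp. It can also bear on the next group: the lower quartile of the free stretch was 1150 bp in the narrowest and 1250 bp in the next. How far joining over 1000 bp set the free stretch and the H3K4me1 share at the TSS base was not tested.

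**Figure D4:**
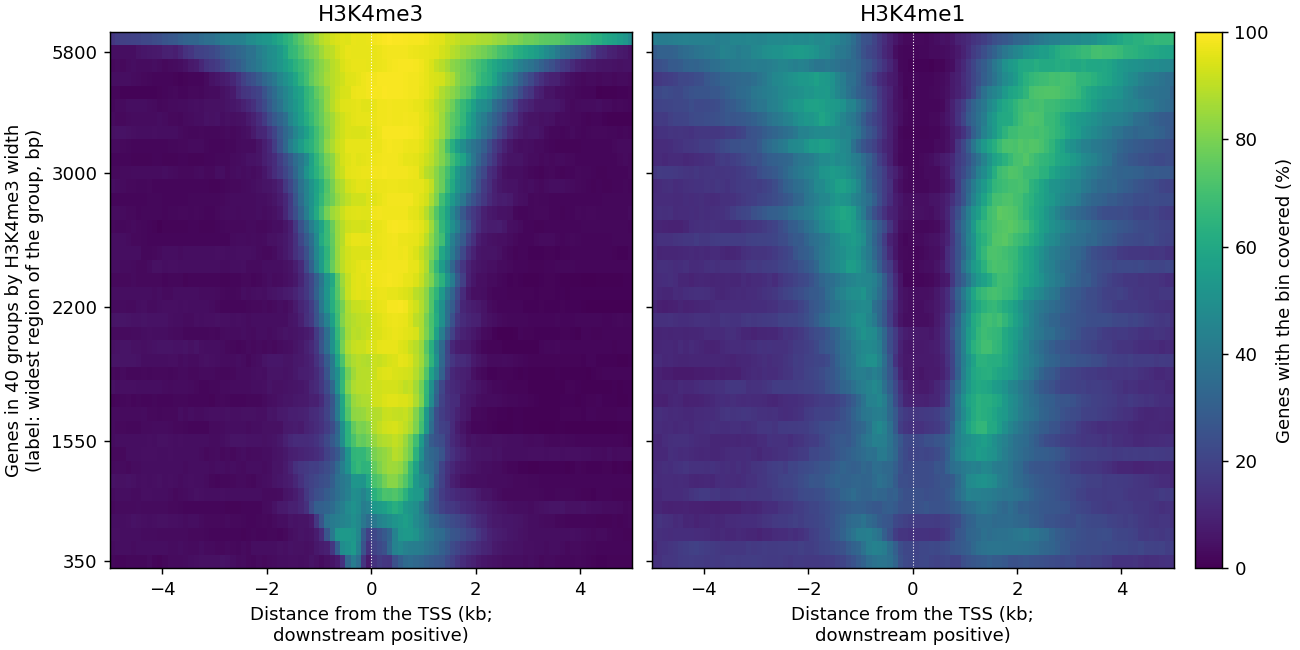
Percent of genes whose 100-bp bin was covered by H3K4me3 (left) or H3K4me1 (right), against distance from the TSS in kb, for the 12472 linked genes split into 40 groups of rising H3K4me3 width from bottom to top; colour gives the percent from 0 to 100. The H3K4me1 bands move outward with the edges of H3K4me3, and their highest bin is downstream in 36 groups and upstream in the 4 narrowest (regions up to 850 bp).

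Neighbouring starts and polymerase also separated the groups. At 1808 linked genes with the TSS of another gene in the opposite direction within 1 kb upstream, both shoulders were present at 75.4% (57.0% of the other 10664), and upstream and downstream shoulders were nearly even, at 84.6% and 87.3%. Without such a divergent partner they were present at 67.3% and 77.8%. Where partners share a region, the upstream edge of one is the downstream edge of the other, so that near-even shares follow from the counting. Among the 2795 genes whose region was linked to more than 1 gene, 74.2% had both shoulders. Genes with and without a divergent partner were not compared at like width. Where Pol II lay in the 3-kb window, 62.5% of 11230 genes had both shoulders, and where it did not, 34.4% of 1242. The gap was smaller at like width: 35.3% against 30.1% in the narrowest group and 56.4% against 47.6% in the next. In the wider groups it was 70.3% against 61.2% (49 genes without Pol II) and 80.8% against 63.0% (27 genes). Neither shoulder was present at 18.1% of genes with Pol II and 37.9% without it in the narrowest group, and at 9.80% and 21.1% in the next. Of the 533 linked genes without H3K27ac in the window, 21.6% had both shoulders and 49.9% neither. With H3K27ac in the window the shares were 61.4% and 8.87% of 11939 genes. The groups by H3K27ac were not compared at like width.

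**Figure D5:**
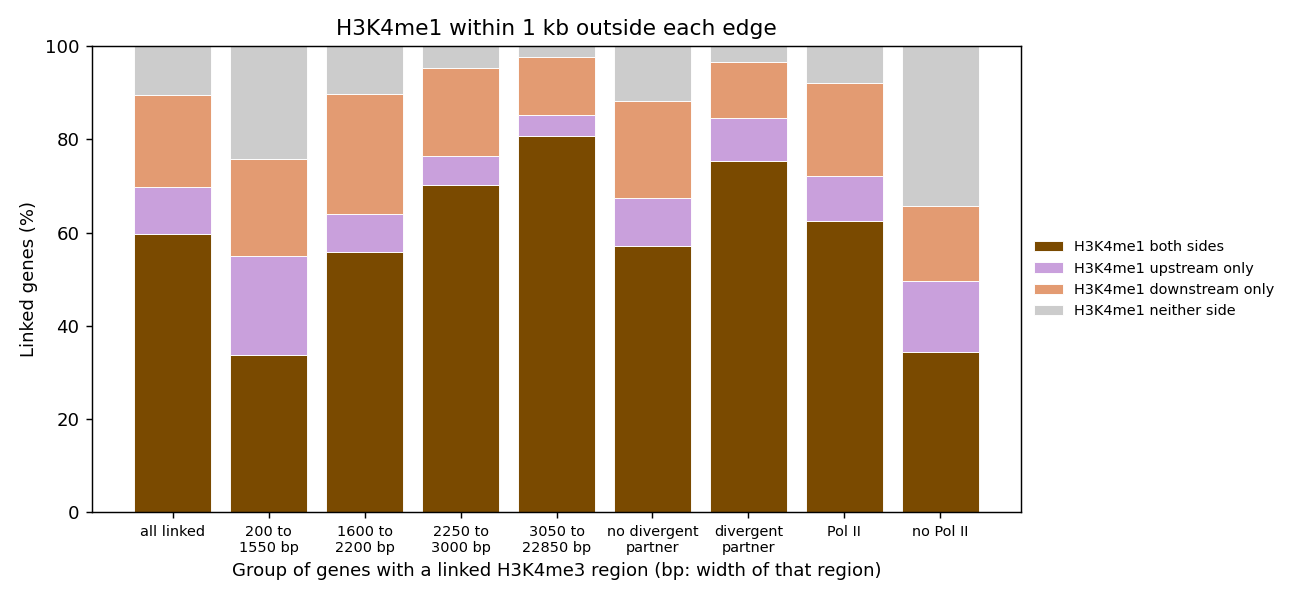
Percent of linked genes with H3K4me1 within 1 kb outside both edges, the upstream edge only, the downstream edge only or neither edge of the H3K4me3 region, as bars stacked to 100%, for all 12472 linked genes, for groups by H3K4me3 width, with and without a divergent partner, and with and without Pol II in the 3-kb window. Both-sided shoulders rise from 33.7% to 80.6% with width.

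The acetylated mark H3K27ac, found at active enhancers and promoters, was listed in 45.8% of upstream strips with H3K4me1 and in 28.1% of those without. Downstream the shares were 28.2% and 25.9%. Pol II was nearly even upstream (22.5% and 21.0%) and less frequent in downstream strips with H3K4me1 (15.9%) than in those without (20.6%). p300/CBP, acetyltransferases found at enhancers, touched 0.459% of upstream and 0.364% of downstream strips with H3K4me1, or 40 and 36 genes, and 0.186% and 0.116% of those without, or 7 and 3 genes. CTCF, the boundary protein, was in 5.44% of upstream strips with H3K4me1 and 7.71% of those without.

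A part of the genes without both shoulders had starts between H3K4me3 regions. At 1075 linked genes (8.62%) no H3K4me3 region covered the TSS base and H3K4me3 lay within 1.5 kb on both sides, with a median gap of 650 bp. Such split starts made up 35.1% of the genes with an upstream shoulder alone, 11.8% of those with a downstream shoulder alone, 14.6% of those with neither and 2.02% of those with both. Read from the outer edges of the flanking H3K4me3 regions, 765 of the 1075 (71.2%) had H3K4me1 on both sides and 57 (5.30%) upstream alone. Split starts were GC-rich, with a median of 74.0% over 1 kb (quartiles 70.4% and 77.2%), against 63.0% (58.0% and 67.9%) where H3K4me3 covered the TSS. The other readouts were less frequent at their TSS bins: H3K27ac was at 9.95% of them against 88.9%, and Pol II at 49.7% against 88.0%. Pol II was in the 3-kb window of 86.4%. The part of GC content in these gaps was not tested.

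CpG content differed between the kinds of bin. Among bins within 500 bp of a TSS, those with H3K4me3 alone held 8.07 ± 4.45 CpGs per 100 bp (mean ± SD over 95471 bins), those with both marks 5.27 ± 4.22, and those with H3K4me1 alone 2.99 ± 3.46. Bins with neither mark held 5.05 ± 5.50, a mix of CpG-rich and CpG-poor starts. Between 1 and 2 kb the means were 3.15, 1.90 and 1.68, and 1.69 with neither mark. Bins with H3K4me3 alone thus held the most CpGs at like distance, and bins with H3K4me1 alone were close to those with neither mark beyond 1 kb. The SDs are as large as most of the differences between the means.

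The same order held for whole starts. The median CpG observed/expected ratio over the 1 kb around the TSS was 0.788 (quartiles 0.709 and 0.862) at starts with H3K4me3 alone, 0.627 (0.442 and 0.733) with both marks and 0.267 (0.190 and 0.389) with H3K4me1 alone. Over all genes it was 0.726. The letters TATAAA, read on either strand (TTTATA on the other) in the 50 bases upstream, were found at 8.48% of 861 starts with H3K4me1 alone, 3.61% with both, 1.77% with H3K4me3 alone and 7.87% with neither, and at 4.72% of all starts with sequence. H3K4me1 over the TSS of linked genes went from 23.3% in the lowest quartile of the CpG ratio to 5.87%, 3.05% and 1.76% in the higher ones. Both-sided shoulders varied less over these quartiles, from 63.7% in the lowest to 51.9% in the highest.

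Starts with H3K4me1 alone also differed in the other lists. Pol II covered 14.7% of these TSS bins, 61.9% of those with both marks and 90.2% of those with H3K4me3 alone, with 51.3% over all genes. H3K27ac was in the 3-kb window of 47.4% of starts with H3K4me1 alone and 98.1% of those with H3K4me3 alone. Of the 861 starts with H3K4me1 alone, 456 (53.0%) had H3K4me3 elsewhere within 10 kb. Their genes were shorter, with a median length of 14.4 kb (quartiles 5.62 and 33.9 kb) against 34.7 kb (14.4 and 80.1 kb) for starts with H3K4me3 alone, and these ranges overlap.

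The 5 genes with the most H3K4me1 among two-sided starts were TGM2, SLC16A5, MAP3K14, FAM131A and LAMB3. Each had no other protein-coding canonical TSS within 20 kb. H3K4me1 covered 20001 of 20001 bases in the TGM2 window, as 1 region of 27450 bp that also ran over the TSS on chromosome 20. It covered 18352 bases around SLC16A5, a monocarboxylate transporter, 18315 around MAP3K14, the NF-kappa-B inducing kinase, 18313 around FAM131A and 18270 around LAMB3, a laminin chain. SLC16A5 and MAP3K14 kept free stretches at the TSS, of 548 bp upstream with 601 bp downstream and of 664 with 885 bp. In TGM2, FAM131A and LAMB3 the TSS lay inside H3K4me1.

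At the other end, 544 genes without a close neighbour had a linked H3K4me3 region and no H3K4me1 base within 10 kb. The widest H3K4me3 regions among them were at ARID2 (6800 bp), STAG2 (4800 bp), HUWE1 (4700 bp), DIPK2A (4600 bp) and USP9X (4350 bp). STAG2 is a cohesin subunit, and HUWE1 and USP9X are a ubiquitin ligase and a deubiquitinase. STAG2, HUWE1 and USP9X are on the X chromosome. The share of X-chromosome genes among the 544 is not given here, so that these 5 genes show no trait of that chromosome. The nearest H3K4me1 to the ARID2 TSS began 54088 bp upstream and 257111 bp downstream, and H3K27ac was in the 3-kb window of all 5.

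The longest upstream-only shoulders were at KCMF1, TIMP2, HDAC7, HEG1 and PMEPA1, with H3K4me1 reaching 10000 (the limit), 10000, 8600, 8500 and 8000 bp beyond the edge. In all 5 the TSS bin held neither mark, and the linked H3K4me3 region lay wholly upstream, 230 to 434 bp from the TSS. At KCMF1 further H3K4me3 started 0.867 kb downstream and H3K4me1 1.77 kb downstream. Stretches free of H3K4me1 downstream of the TSS ended after 1318 bp at TIMP2, 1035 bp at HDAC7, 1940 bp at HEG1 and 8170 bp at PMEPA1. The class of these genes thus describes the edges of the linked region and not the absence of H3K4me1 downstream of the start. The downstream-only genes with reach to the limit and first by symbol were CHD2, CTDSP2, CTNNBIP1, EHD2 and EPG5. At CHD2 the H3K4me3 region ran 8146 bp into the gene and H3K4me1 began 5.15 kb from the TSS, while the nearest upstream H3K4me1 was 11903 bp away.

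Among 230 genes without a close neighbour that had H3K4me1 at the TSS and no H3K4me3 within 10 kb, the most H3K4me1 was at NDST1 (17751 bases), an unnamed gene on chromosome 1 (16601), ELF3 (14665), EDN2 (13654) and RIPOR3 (12851). ELF3 is an epithelial ETS factor and EDN2 encodes endothelin 2. NDST1 had no H3K27ac in the 3-kb window and the other 4 did.

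The line's own genes were read by list, beside 62.7% of all genes linked and 59.7% of these with both shoulders. Of 20 mesenchymal or basal B markers, 16 (80%) had a linked H3K4me3 region and 12 of these (75%) had both shoulders, 2 upstream only and 2 downstream only. VIM (vimentin) had 10050 bp of H3K4me3 with shoulders of 2250 and 1200 bp, PLAU (urokinase) 9200 bp with 2350 and 900 bp, and CAV1 (caveolin 1) 7700 bp with 4000 and 1700 bp. SPARC had H3K4me1 at its TSS and no H3K4me3 within 10 kb. CDH2 (N-cadherin), TWIST1 and ETS1 had neither mark at the canonical TSS and no H3K4me3 within 10 kb of it. Other starts of these genes were not read. Of 20 luminal markers 10 (50%) were linked, at a median width of 3200 bp, 8 of them (80%) with both shoulders. These 8 were ERBB2, ERBB3, XBP1, KRT8, KRT18, KRT19, MLPH and CLDN7, with 6650 bp of H3K4me3 at KRT19 and 4500 bp at MLPH. FOXA1 had the upstream shoulder only, and PGR had neither. The luminal genes named next had no linked region. ESR1 (estrogen receptor) had neither mark within 10 kb. TFF1, AGR2, SPDEF and CLDN4 had H3K4me1 alone at the TSS, and CLDN4 had 12476 bases of H3K4me1 without H3K4me3. CDH1 (E-cadherin) had 7095 bases of H3K4me1 within 10 kb but neither mark at its TSS. H3K4me1 alone at the TSS was thus found at 4 of 20 luminal and 1 of 20 mesenchymal markers, beside 4.33% of all genes, and the lists are too short to read a difference from these counts.

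Markers of other tissues seldom had H3K4me3 at the start. None of 10 blood and none of 10 liver markers had a linked H3K4me3 region, and 4 of 10 neuronal ones did. H3K4me1 alone covered the TSS of, for example, CD14 in the blood list, FGB in the liver list and SLC17A7 in the neuronal list. Some H3K4me1 lay within 10 kb of 8 blood, 7 liver and 5 neuronal markers, and of 76.5% of all genes. Over each whole list its median was 1.47 kb for blood, 1.58 kb for liver and 0.35 kb for neuron, and 2.20 kb over all genes.

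All 7 AP-1 genes had a linked H3K4me3 region, 4 with both shoulders (57.1%, near the 59.7% of all linked genes), 2 with the downstream one and 1 (JUN) with the upstream one. FOSL1 had the widest, 17450 bp, which extended 13408 bp downstream of the TSS. Starts of other genes within this region were not excluded. H3K4me1 reached 3200 bp beyond the upstream and 7800 bp beyond the downstream edge of the region. A stretch free of H3K4me1 ran from 591 bp upstream to 4408 bp downstream of the FOSL1 TSS. FOS had 3700 bp with shoulders of 700 and 300 bp, JUNB 5900 bp with 600 and 2450 bp, and FOSB 3200 bp with 100 and 1200 bp and both marks at the TSS. JUN had 6400 bp with 650 bp upstream. At FOSL2 (5550 bp) and JUND (2600 bp) the H3K4me3 region started 226 and 332 bp downstream of the TSS, and the TSS bin held neither mark. Of 33 protein-coding viewpoint genes of the study's Capture-C experiment that were matched here, 32 were linked, 24 of these with both shoulders (75%), 6 downstream only, 1 (HEG1) upstream only and 1 (CDCP1) with neither. PDE2A had no linked region. The median width at the linked viewpoint genes was 3475 bp. Of all linked genes with regions of 3050 to 22850 bp, 80.6% had both shoulders.

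Gene families differed in these counts. The 86 cytosolic ribosomal protein genes had 81 linked regions with a median width of 4100 bp and 61 with both shoulders (75.3%, against 59.7% of all linked genes). Of 18 glycolysis genes 17 were linked and 14 of these had both shoulders (82.35%), with a median of 3400 bp. Of all linked genes with regions of 3050 to 22850 bp, 80.6% had both shoulders. The families were not compared with other genes at like width. GAPDH had 5600 bp of H3K4me3 with H3K4me1 reaching 1900 bp upstream and 4550 bp downstream of it. Of 30 DNA replication genes 29 were linked, 13 with both shoulders (44.8%) and 11 with the downstream one alone. Over all linked genes 19.5% had the downstream one alone. The 20 genes for H3K4 methyltransferases, subunits of their complexes and demethylases were all linked, 9 with both shoulders (45%, against 59.7% of all linked genes). KDM6A, an H3K27 demethylase found with KMT2C and KMT2D, had no H3K4me1 within 10 kb.

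Numbered zinc finger (ZNF) genes, many of them repressors of transposable elements, had the lowest share with both shoulders among the lists with 10 or more linked genes. Of 472, 401 were linked (85.0%), and of these 123 had both shoulders (30.7%) and 143 neither (35.7%, against 10.6% of all linked genes). Their median H3K4me3 width was 2000 bp, near the 2200 bp of all linked genes, and their median H3K4me1 within 10 kb was 0.85 kb. Of 64 replication-dependent histone genes 38 were linked (59.4%, near the 62.7% of all genes). Of these 15 had both shoulders (39.5%) and 10 had neither (26.3%), beside 59.7% and 10.6% of all linked genes. A linked region was found at 6 of 39 HOX genes (15.4%) and 5 of 389 olfactory receptor genes (1.29%). Members of these families lie in clusters and share windows, so that the counts are not independent.

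Away from protein-coding canonical TSSs H3K4me3 lay inside H3K4me1 more often. There were 10220 H3K4me3 regions over 10 kb from every such TSS. Starts of other types of gene and alternative starts were not excluded from them. Of these regions 46.9% (45.9% to 47.8%) lay fully inside H3K4me1, against 7.61% (7.13% to 8.12%) of the 11014 linked regions. The distant regions were narrower, with a median of 550 bp against 2150 bp. Among regions of 1600 to 2200 bp the shares were 27.9% of 655 and 5.62% of 2810. Over all widths, H3K4me1 lay outside both edges of 53.3% of the distant and 57.7% of the linked regions, and outside neither edge of 31.3% and 11.3%. At 1600 to 2200 bp the order for both edges was the other way, with 61.5% (57.7% to 65.2%) of the distant and 55.5% (53.7% to 57.3%) of the linked regions. By bases, 29.3% of H3K4me3 inside the windows was shared with H3K4me1 and 51.1% outside them.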

How the data were processed

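Chromatin immunoprecipitation and sequencing data from MDA-MB-231 cells were used. The authors aligned reads to hg19 (BWA-backtrack in their methods, Bowtie2 in the submitters' processing notes) and made a signal of unique reads in 50-bp bins with PASHA. For H3K4me1 and H3K4me3 they scaled it, subtracted background, merged the 2 replicates and called regions by threshold. The threshold was 30 for H3K4me1 (minimum run 250 bp, gaps joined up to 1000 bp) and 30 for H3K4me3 (150 bp and 500 bp). For the other lists the threshold was 50 for H3K27ac, Pol II and CTCF and 60 for p300/CBP. Gaps were joined up to 500 bp for H3K27ac, 800 bp for Pol II and 50 bp for CTCF and p300/CBP. The names of the Pol II and CTCF lists state no background subtraction, and p300/CBP has 1 sample. The deposited lists hold positions only, without a value or depth.

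Listed starts and ends are 1 past a multiple of 50, and the end was taken as the first base after the region. No region passed a chromosome end of GRCh37. TSSs, including 13 mitochondrial ones that carried neither mark, came from GENCODE release 44. Overlaps were computed with Python 3.11.15 and NumPy 2.4.6 and tested on simulated data (0 wrong of 2756 comparisons), intervals with SciPy 1.17.1 and figures with matplotlib 3.10.9. No test was made, since genes are not replicates. The comparison, gene lists and classes were chosen with earlier results of these data known. Singly named genes had no other protein-coding canonical TSS within 20 kb and lay off chromosomes 8 and Y. They were the 5 highest per class (most H3K4me1, widest H3K4me3 or longest reach, ties by symbol), beside members of the lists. The upstream sequences of some named genes and the values of some list members are not reported here.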

Additional observations from a re-analysis of the deposited data

How the results depend on the processing

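No paired analysis was possible because each mark has 1 list made from both replicates. Leaving out a replicate or raising the signal threshold could not be done with such lists. The dip of H3K4me1 at the TSS and the higher downstream crest were recomputed under 5 alternatives and the shoulder classes under 8, of which 1 (regions linked to no other gene) was added with the data already seen. Values are percents, and those that moved beyond the interval of the reported value follow. With only regions at least as wide as the list median, H3K4me3 at the TSS was 49.8, H3K4me1 6.88, both 2.72, the upstream crest 18.4, the downstream crest 29.98, both shoulders 24.5 and neither 31.5, so that neither became more frequent than both and the downstream side alone, at 34.1, the most frequent class. With TSSs over 20 kb from any other protein-coding canonical TSS, the values were 48.7, 7.11, 3.56, 25.2, 31.9, 52.2 and 14.0. Joining H3K4me3 over gaps up to 1000 bp gave 57.8 at the TSS, 64.9 with both shoulders and 9.65 with neither. Counting bins from 1 base gave 53.9 for H3K4me3, 4.33 for both, and crests of 29.8 and 38.7, and asking for all 100 bases gave 52.0, 3.77, 25.7 and 35.3. Shoulders on both sides and on neither were 56.4 and 11.7 within 500 bp, 65.8 and 9.13 within 2 kb, 33.3 and 23.6 with at least 500 of 1000 bases (downstream alone 30.6), 66.1 and 8.46 with H3K4me3 over the TSS base, and 55.5 and 12.1 with regions linked to no other gene. Shoulder shares therefore depend on the rule for a shoulder and on the region width kept. The dip and the higher downstream crest kept their direction under each alternative run on them.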
